A study of Mus musculus with 6 samples.

Results

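The mRNAs of 10 genes of glutathione chemistry were followed in mouse macrophages with and without the scavenger receptor MSR1. They comprised the peroxidases Gpx1, Gpx3, Gpx4, Gpx7 and Gpx8, the reductase Gsr, the synthetase Gss, the transferase Ggt5 and the aminopeptidases Anpep and Lap3. Transferases such as Ggt5 begin the breakdown of glutathione, and the aminopeptidases can split the dipeptide that is left. The 10 genes were picked by symbol from the 52550 genes of the count table, and all 10 were among the 16402 genes with enough counts to be tested. The set was chosen on results of these same 6 libraries, in which Gpx3 and Anpep had been seen lower in the MSR1 KO group. The differences between the groups for these genes are therefore given as a description, with no p-value for any single gene. Calls of these genes at a threshold are given further on, also as a description only.

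RNA-seq was performed on macrophages grown from bone marrow of MSR1 KO or MSR1 WT mice, all of strain C57BL/6, with 3 libraries per genotype. In both groups the marrow cells received 25 ng/ml M-CSF for 7 days and the resulting macrophages then shared medium with bone marrow stem cells (BMSCs) across a transwell for 48 h, so no library shows macrophages without BMSCs. The study asked how loss of the receptor alters macrophages in this co-culture system. The study calls the libraries of a group biological replicates, whereas the labels do not say whether they came from separate mice or cultures, so p-values measure the spread between these libraries. The labels also do not say which part of Msr1 was removed or from which genotype the BMSCs came.

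Total counts per library were between 36143518 and 47417448. Msr1, the targeted gene, measured 183 to 223 CPM (counts relative to library size, after TMM scaling) under MSR1 WT and 43.0 to 58.9 CPM under MSR1 KO, for which edgeR gave a log2 fold change of -2.02 (SE 0.135, adjusted p = 0.0012). Macrophage markers were abundant, with means in MSR1 WT and MSR1 KO libraries of 14900 and 13400 CPM for Lyz2, 4410 and 4540 CPM for Csf1r and 2250 and 2360 CPM for Adgre1. The 10 macrophage markers summed to 25300 to 28200 CPM in MSR1 WT and 24900 to 26100 CPM in MSR1 KO libraries. The 16 stromal cell markers were also read in every library, led by Col1a2 (678 and 516 CPM), Col1a1 (585 and 490 CPM) and Bgn (444 and 262 CPM). In total 436 of the tested genes (2.66%) were lower and 369 (2.25%) higher in MSR1 KO at an adjusted p under 0.05, and without both libraries numbered 1 these counts were 6 and 0.

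Glutathione is a tripeptide of glutamate, cysteine and glycine that serves as the main small thiol of animal cells. Glutathione peroxidases use it to reduce hydrogen peroxide and lipid peroxides, and glutathione reductase restores the oxidised form at the expense of NADPH. Outside the cell, γ-glutamyl transferases remove the glutamate and surface peptidases split the remaining cysteinylglycine, so that cysteine can be taken up again. Macrophages produce large amounts of oxidants and depend on this cycle to limit damage to their own lipids and proteins.

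The 5 peroxidase mRNAs fall into 2 kinds by the codon at the catalytic site, which is shown because Gpx1 is set beside the other selenoprotein mRNAs further on. In Gpx1, Gpx3 and Gpx4 this codon is an annotated TGA that is read as selenocysteine rather than as a stop, whereas Gpx7 and Gpx8 carry a cysteine codon at the aligned position. The capitals mark that codon, with 24 coding bases on either side, read 5′ to 3′ from the GENCODE M21 transcripts of GRCm38.
Gpx1: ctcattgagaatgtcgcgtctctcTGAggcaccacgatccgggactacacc
Gpx3: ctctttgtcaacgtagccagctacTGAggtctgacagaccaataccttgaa
Gpx4: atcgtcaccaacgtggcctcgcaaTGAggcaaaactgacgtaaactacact
Gpx7: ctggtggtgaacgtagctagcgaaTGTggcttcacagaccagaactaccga
Gpx8: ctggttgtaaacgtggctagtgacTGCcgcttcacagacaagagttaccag
The codon is number 47 from the start codon in Gpx1 (chr9:108339451-108339453, plus strand, exon 1 of 2), 73 in Gpx3 (chr11:54907256-54907258, plus strand, exon 2 of 5) and 129 in Gpx4 (chr10:80054737-80054739, plus strand, exon 3 of 7). It is number 56 in Gpx7 (chr4:108403430-108403432, minus strand, exon 2 of 3) and 79 in Gpx8 (chr13:113045661-113045663, minus strand, exon 2 of 3). Gpx7 and Gpx8 had the most similar windows, with 39 of 51 bases identical (76.5%), and Gpx1 and Gpx3 the least similar, with 24 of 51 (47.1%).

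Among the 10 genes, Gpx4, which reduces peroxidised lipids in membranes, was the most abundant transcript per length, and Ggt5 the least abundant. In MSR1 WT libraries the level per kilobase of exon was 127 ± 15.4 CPM for Gpx4, 77.4 ± 1.54 CPM for Anpep, 62.7 ± 2.39 CPM for Gpx3, 52.4 ± 24.2 CPM for Gpx1 and 46.8 ± 4.9 CPM for Gsr (mean ± SD, n = 3 for each). Lap3 (12.3 ± 0.49 CPM per kilobase) and Gpx8 (10.9 ± 0.744) formed a middle tier, followed by Gpx7 (3.81 ± 0.0902), Gss (2.63 ± 0.224) and Ggt5 (1.67 ± 0.293, all SD, n = 3). The ranges of neighbours in this order overlapped for Gpx3 with Gpx1 and for Gpx1 with Gsr, and no other adjacent pair overlapped. Of the summed level per kilobase of the 5 peroxidases, Gpx4 made up 49.5% in MSR1 WT and 56.4% in MSR1 KO, Gpx3 24.4% and 16.5%, and Gpx1 20.4% and 22.9%. The plot of levels per kilobase shows the order and where the groups part. With the whole span of each gene as its length, Gpx1, whose annotated exons fill its span, ranked highest at 52.4 CPM per kilobase and Gpx4 followed at 23.6. In MSR1 WT libraries Gpx4 therefore held the largest share of the peroxidases by exon length only.

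**Figure D1:**
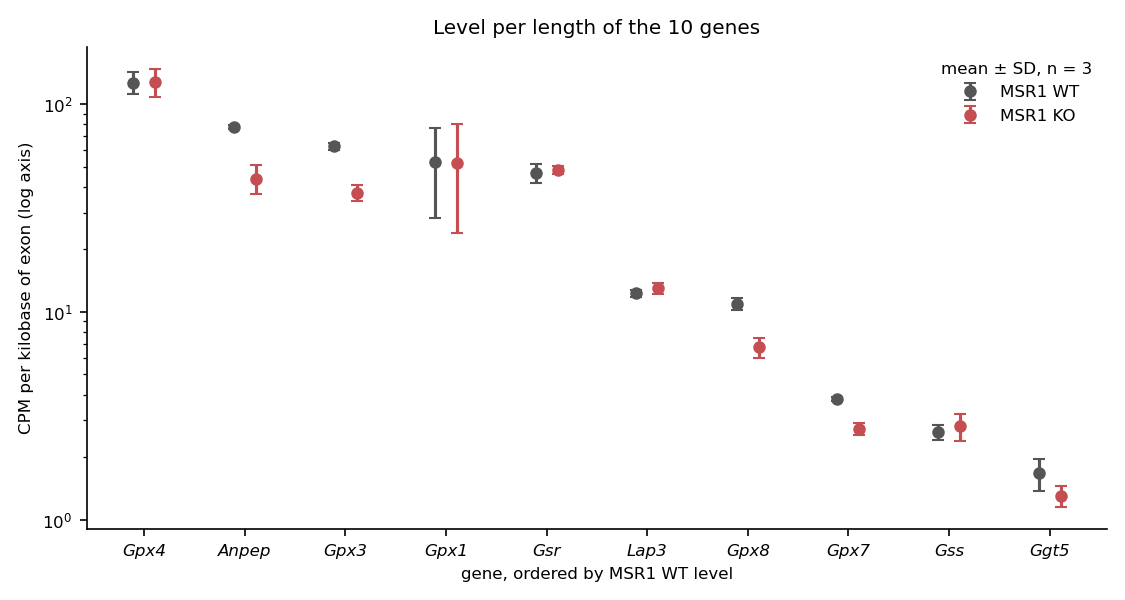
Level of each of the 10 genes as CPM per kilobase of exon, on a log axis, with points for the mean and bars for the SD of 3 libraries per genotype. Gpx4 stands highest at 127 CPM per kilobase in MSR1 WT. The MSR1 KO points of Anpep, Gpx3, Gpx8, Gpx7 and Ggt5 lie below those of MSR1 WT, and that of Gpx1 slightly so (51.9 against 52.4). Among these genes, the libraries of the groups overlap for Ggt5 and Gpx1.

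Gpx3 encodes the peroxidase that cells secrete into plasma and extracellular fluid. It is gene ENSMUSG00000018339.11 on chromosome 11, from 54902453 to 54910377 on the plus strand. It measured 117, 115 and 109 CPM in the MSR1 WT libraries and 63.1, 66.1 and 74.5 CPM in the MSR1 KO libraries. The groups did not overlap, and the highest MSR1 KO library stood well under the lowest MSR1 WT library. The MSR1 KO mean of 67.9 ± 5.92 CPM was 59.8% of the MSR1 WT mean of 114 ± 4.33 CPM (SD, n = 3), a log2 fold change of -0.74 (SE 0.085). These values rest on 2268 to 5476 counts per library. In bulk RNA, fewer cells that express a gene and less of its RNA per cell cannot be told apart.

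Gpx8 and Gpx7 encode peroxidases of the endoplasmic reticulum that act beside oxidative protein folding. Gpx8 (ENSMUSG00000021760.4, chromosome 13) measured 12.2, 10.7 and 11.4 CPM in MSR1 WT and 6.18, 7.28 and 7.72 CPM in MSR1 KO libraries. Its groups did not overlap, and its log2 fold change was -0.69 (SE 0.139). Gpx7 (ENSMUSG00000028597.11, chromosome 4) measured 5.04, 4.89 and 4.81 CPM in MSR1 WT and 3.28, 3.54 and 3.76 CPM in MSR1 KO libraries, on only 118 to 232 counts per library. The groups of Gpx7 did not overlap either, with a log2 fold change of -0.48 (SE 0.163). The MSR1 KO libraries lay below the MSR1 WT libraries for Gpx3 and for both peroxidases with a cysteine codon, and not for Gpx1 or Gpx4.

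Gpx4 (ENSMUSG00000075706.10, chromosome 10) measured 193, 246 and 217 CPM in MSR1 WT and 195, 208 and 259 CPM in MSR1 KO libraries. The ranges covered nearly the same values, and the log2 fold change was 0.01 (SE 0.127). Gpx1, the abundant peroxidase of cytosol and mitochondria (ENSMUSG00000063856.7, chromosome 9 from 108338903 to 108340343), measured 37.0, 105 and 84.6 CPM in MSR1 WT and 29.3, 89.3 and 106 CPM in MSR1 KO libraries. The group means were 75.5 ± 34.8 and 74.8 ± 40.3 CPM (SD, n = 3), with a log2 fold change of -0.01 (SE 0.483), which became -0.34 to 0.38 with one library left out at a time. The low values were those of the libraries numbered 1 in both genotypes.

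In these libraries Gpx1 stood at 39.0% (MSR1 WT) and 30.1% (MSR1 KO) of the mean of the other libraries of its group. Its SD within groups, 0.905 on the log2 CPM scale, ranked 34 among 9209 genes with a mean of at least 10 CPM, whose median SD was 0.122. Of those 9209 genes, 2 had both libraries numbered 1 at under 50% of every other library, namely Gpx1 and the predicted gene Gm20431, and 1 gene had both at over 2 times every other library. Gm20431 had 0 CPM in both, but also only 1.63 CPM in MSR1 KO library 3. The labels name no batch, and whether these libraries were handled apart was not tested.

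The low Gpx1 values were not shared to this degree by the other selenoprotein mRNAs examined, as the plot of 19 such mRNAs shows. GENCODE M21 annotates a selenocysteine in 24 genes, so the 19 are not a full list. Gpx4, with the same kind of codon, stood at 83.2% and 83.3% of the mean of the other libraries in the MSR1 WT and MSR1 KO libraries numbered 1. Gpx3 stood there at 104% and 89.7%. Leaving out Gpx1, the other 18 mRNAs ranged from 76.5% (Selenoh) to 138% in MSR1 WT library 1 and from 49.1% (Selenoi) to 106% in MSR1 KO library 1. For 6 of the 19 mRNAs, Gpx1, Gpx4, Selenow, Selenof, Selenos and Selenoo, the libraries numbered 1 were the lowest in both genotypes. None of the 7 tested genes for selenocysteine incorporation was called in either direction at an adjusted p under 0.05 by edgeR, and 0 of the 7 had an unadjusted p under 0.05 or were called by DESeq2. Of these, Sephs2, which makes the selenium donor, had a log2 fold change of -0.13 (SE 0.083), and Secisbp2, which binds the selenocysteine insertion element, one of 0.05 (SE 0.079).

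**Figure D2:**
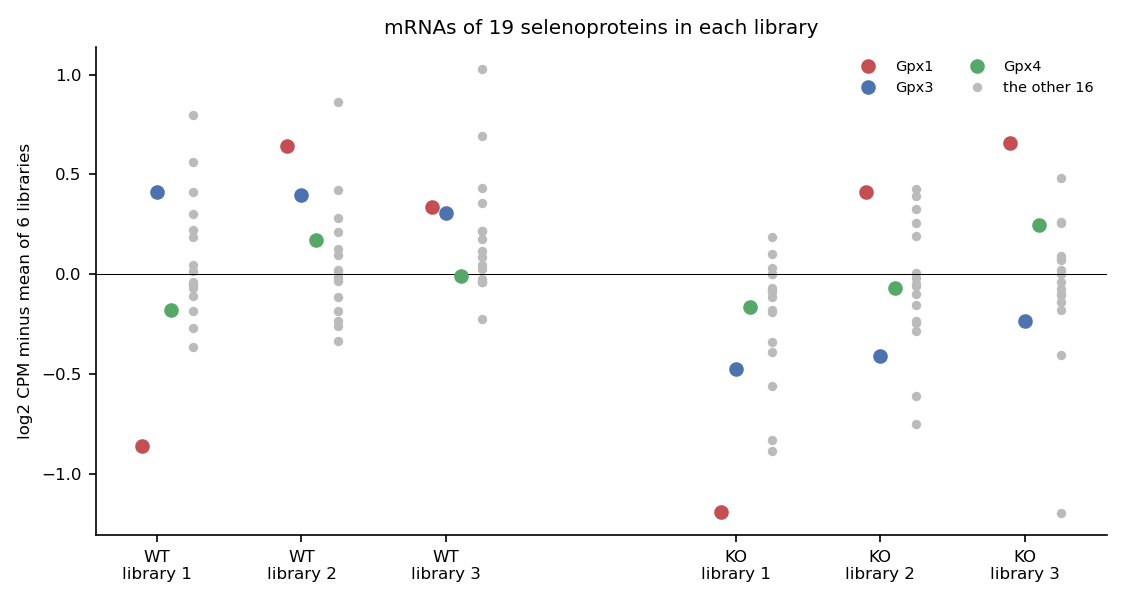
Centred log2 CPM of 19 selenoprotein mRNAs (each value minus the mean of that mRNA over 6 libraries) in every library, with Gpx1, Gpx3 and Gpx4 coloured and the other 16 in grey. Gpx1 is the lowest point of WT library 1 and of KO library 1, where it stood at 39.0% and 30.1% of the mean of the other libraries of its group, whereas Gpx3 is above 0 in all MSR1 WT and below 0 in all MSR1 KO libraries.

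For the genes that reduce and synthesise glutathione the genotypes overlapped. Gsr, the glutathione reductase (ENSMUSG00000031584.16), measured 123, 144 and 119 CPM in MSR1 WT and 135, 126 and 136 CPM in MSR1 KO libraries. Its groups overlapped, with a log2 fold change of 0.04 (SE 0.089), and the gene lies 5.88 Mb from Msr1 on chromosome 8. Gss, the synthetase that adds glycine in the last step of synthesis (ENSMUSG00000027610.17, chromosome 2), measured 15.3, 14.4 and 17.0 CPM in MSR1 WT and 16.4, 14.3 and 19.2 CPM in MSR1 KO libraries. The groups overlapped here as well, at a log2 fold change of 0.10 (SE 0.136). Exons of Acss2, Gssos1 and Gssos2 share 913 bases (15.4%) of the exon length of Gss, and since the strand setting of the counting is not given, reads from these genes cannot be told apart there.

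Of Anpep, Ggt5 and Lap3, Anpep alone had groups that did not overlap. Anpep, aminopeptidase N or CD13, is a surface peptidase of myeloid and stromal cells that splits cysteinylglycine among other peptides (ENSMUSG00000039062.15, chromosome 7 from 79821803 to 79861059, minus strand). It measured 322, 313 and 325 CPM in MSR1 WT and 206, 149 and 187 CPM in MSR1 KO libraries. No MSR1 KO library reached any MSR1 WT library, and the MSR1 KO libraries varied more among themselves. The MSR1 KO mean of 181 ± 28.7 CPM was 56.5% of the MSR1 WT mean of 320 ± 6.36 CPM (SD, n = 3), which is the lowest log2 fold change of the 10 genes at -0.82 (SE 0.112).

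Ggt5, a γ-glutamyl transferase that also acts on leukotriene C4 (ENSMUSG00000006344.17, chromosome 10), measured 9.58, 8.30 and 11.7 CPM in MSR1 WT and 7.49, 6.93 and 8.69 CPM in MSR1 KO libraries. The highest MSR1 KO library lay above the lowest MSR1 WT library, and the log2 fold change was -0.36 (SE 0.17). Lap3, a cytosolic leucine aminopeptidase that can also split cysteinylglycine (ENSMUSG00000039682.12, chromosome 5), measured 37.9, 36.5 and 39.6 CPM in MSR1 WT and 38.8, 39.2 and 43.1 CPM in MSR1 KO libraries. Its groups overlapped, with a log2 fold change of 0.09 (SE 0.082). Lap3 is known to respond to interferon-γ in other cells, and in these libraries 12 of 14 interferon-response genes rose in MSR1 KO, with summed levels of 952 to 1680 CPM in MSR1 WT and 2700 to 4310 CPM in MSR1 KO libraries. Their part in the Lap3 values was not tested.

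**Figure D3:**
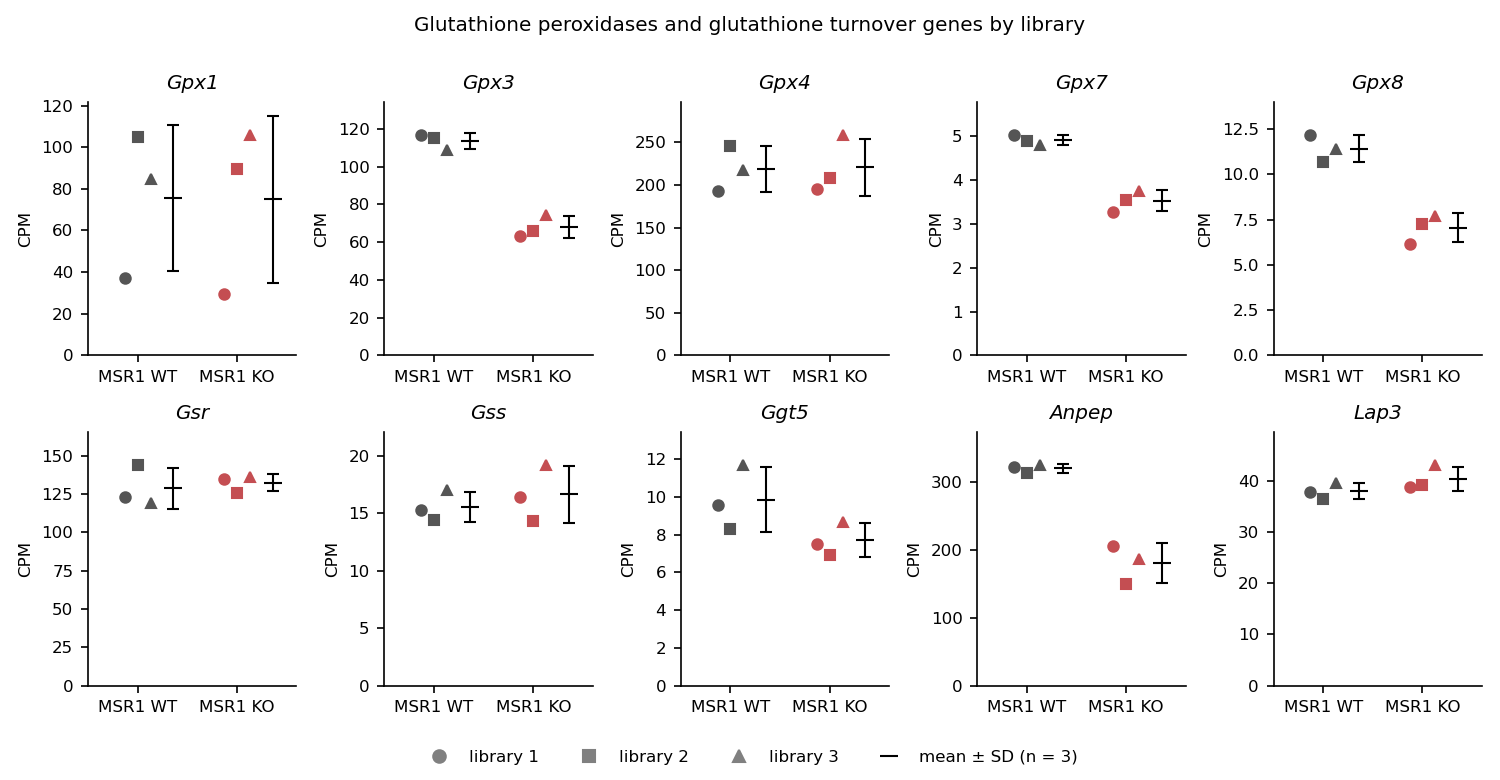
CPM of each of the 10 genes in every library, with each axis starting at 0, the 3 libraries of a genotype as points and the mean ± SD (n = 3) beside them. The MSR1 KO points of Gpx3, Gpx7, Gpx8 and Anpep lie below all MSR1 WT points, and the low points of Gpx1, at 37.0 and 29.3 CPM, belong to the libraries numbered 1.

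In the fit over all 16402 tested genes, Anpep, Gpx3 and Gpx8 were among the 436 genes called lower (2.66% of those tested), and 0 of the 10 were among the 369 called higher (2.25%). With an unadjusted p under 0.05, edgeR placed 4 of the 10 lower, against 10.2% of all tested genes, and 0 higher, against 8.65%. DESeq2 called 3 lower, against 5.17%, and 0 higher, against 4.39%. The groups did not overlap, with MSR1 KO below, for 4 of the 10 genes against 2204 of all tested genes (13.4%), and with MSR1 KO above for 0 of the 10 against 1979 (12.1%). The median log2 fold change was -0.18 for the 10 genes and -0.002 for all tested genes. Because the set was selected on this contrast, nothing is read from these counts. Without both libraries numbered 1, 0 of the 10 were called. Anpep also lost its call without MSR1 WT library 1, and Gpx8 with any one of the 6 libraries left out.

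Stromal cell markers were set beside these values. Of the 16 stromal markers tested, edgeR called 5 lower in MSR1 KO (31.2%, beside 2.66% of all tested genes) and 0 higher. These 5 were Pdgfra, Cxcl12, Pdgfrb, Loxl1 and Bgn, with log2 fold changes of -1.19, -1.11, -0.87, -0.78 and -0.76. At an unadjusted p under 0.05, 7 were lower and 1, Thy1, was higher, beside 10.2% and 8.65% of all tested genes. DESeq2 likewise called 7 lower and Thy1 higher, beside 5.17% and 4.39%. The groups did not overlap for 7 with MSR1 KO below, which also included Col3a1 (-0.65) and Col1a2 (-0.39), and for 1 with MSR1 KO above. Thy1 measured 2.61 ± 1.52 CPM in MSR1 WT and 6.43 ± 0.553 CPM in MSR1 KO libraries (SD, n = 3), a log2 fold change of 1.31 (adjusted p = 0.091 by edgeR), and Nt5e (0.46), Lum (0.46) and Runx2 (0.02) were not lower either. Their summed level was 2030 to 2600 CPM in MSR1 WT and 1490 to 1930 CPM in MSR1 KO libraries, with no overlap, and none of the 16 was at 0 in every library. Among MSR1 WT libraries the stromal sum was lowest in library 2 at 2030 CPM. There Anpep (313 CPM) and Gpx8 (10.7 CPM) had their lowest MSR1 WT values, and Gpx3 (115 CPM) and Gpx7 (4.89 CPM) had their middle ones. Among MSR1 KO libraries the stromal sum was highest in library 2 at 1930 CPM. There Anpep (149 CPM) had its lowest value of all, and Gpx3 (66.1 CPM), Gpx7 (3.54 CPM) and Gpx8 (7.28 CPM) had their middle MSR1 KO values. The part of stromal RNA in the lower Gpx3, Gpx7, Gpx8 and Anpep values was not tested. Of the macrophage markers Mrc1 fell and Ptprc and Fcgr1 rose, and the plot of summed marker levels sets the lists side by side. Dendritic cell markers summed to 1.62 to 4.29 CPM over all libraries, and neutrophil markers to 418 to 798 CPM in MSR1 WT and 635 to 1040 CPM in MSR1 KO libraries. Of these 12 markers edgeR called 0 in either direction, while 3 were higher at an unadjusted p under 0.05 and DESeq2 called 1.

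**Figure D4:**
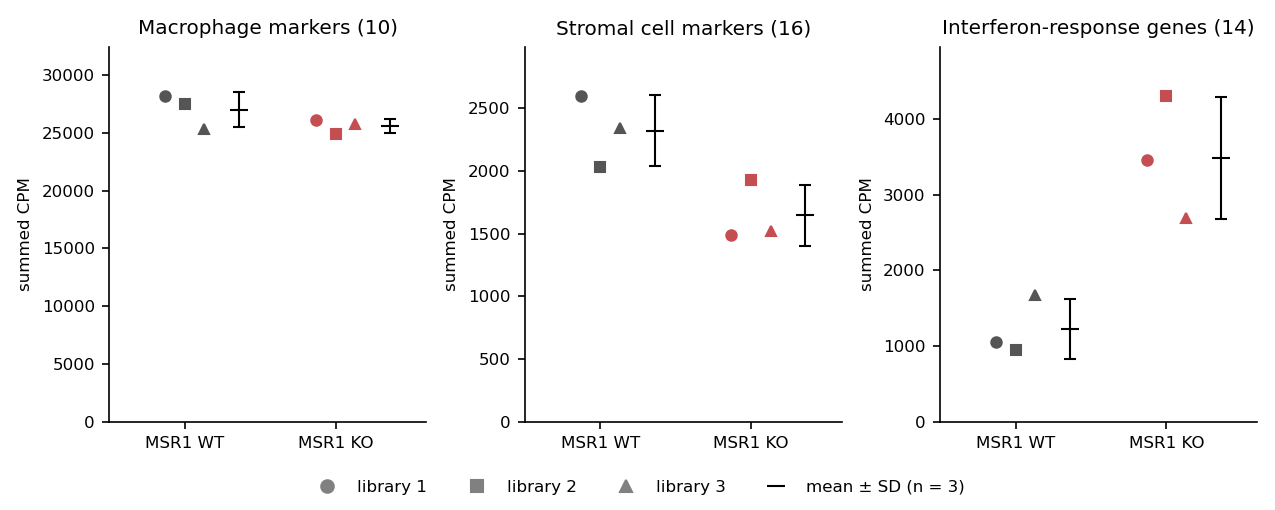
Summed CPM of 10 macrophage markers, 16 stromal cell markers and 14 interferon-response genes in each library, with axes from 0 and the mean ± SD of 3 libraries beside the points. The stromal sums of the MSR1 KO libraries (1490 to 1930 CPM) lie below those of MSR1 WT (2030 to 2600 CPM), while the interferon-response sums lie above.

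The genes whose profile over the 6 libraries was closest to that of Gpx3 were Ltbp3, Kcnj10 and Rhoc. Closeness was the root mean square difference of log2 CPM centred on each gene's mean, compared over 9208 genes, and it was 0.059, 0.074 and 0.077 for these genes against a median of 0.403. For Anpep the closest were Emp1 (0.072), C77080 (0.098) and Blnk (0.108), with a median of 0.459 over all genes. Gpx3 and Anpep differed from each other by 0.169 on this measure. Both were chosen as lower in MSR1 KO in these same 6 libraries, and the measure includes that difference. Nothing about shared regulation is therefore read from these distances.

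The promoters of Gpx3 and Gpx8 are shown because these peroxidases were among the genes called lower, as RefSeq windows on GRCm38.p6 from 250 bases before to 50 bases after the start, 5′ to 3′ on the gene's strand. Capitals mark a match to one of 4 motifs searched on both strands, namely the antioxidant response element TGACNNNGC, the interferon-γ activated site TTCNNNGAA, the core of the interferon-stimulated response element TTCNNTTTC and the AP-1 site TGANTCA.
Gpx3: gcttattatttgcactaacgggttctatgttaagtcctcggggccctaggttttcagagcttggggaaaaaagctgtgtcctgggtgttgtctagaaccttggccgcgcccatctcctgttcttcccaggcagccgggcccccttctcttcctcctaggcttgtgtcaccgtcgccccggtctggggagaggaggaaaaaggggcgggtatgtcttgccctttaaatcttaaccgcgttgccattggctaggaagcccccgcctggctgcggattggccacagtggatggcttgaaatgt
Gpx8: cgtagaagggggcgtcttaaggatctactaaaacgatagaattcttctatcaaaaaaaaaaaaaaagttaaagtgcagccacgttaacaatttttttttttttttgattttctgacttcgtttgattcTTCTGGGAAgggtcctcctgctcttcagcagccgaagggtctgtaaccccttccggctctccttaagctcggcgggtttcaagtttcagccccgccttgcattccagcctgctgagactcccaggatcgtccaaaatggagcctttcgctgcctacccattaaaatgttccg
The Gpx3 window (chr11:54902604-54902903, plus strand) held none of the 4 motifs and had 13 CG dinucleotides and a GC content of 56.3%. Its start site lies 401 bases inside the gene as bounded above (from 54902453). The whole Gpx3 window is thus within the counted gene and not upstream of it. The Gpx8 window (chr13:113046339-113046638, minus strand) held TTCTGGGAA, a match to the interferon-γ activated site that begins at position -122 from the start, in a window of 45.3% GC. Promoter windows were found for 8 of the 10 genes, 11 windows in all, and besides Gpx8 only a window of Gpx4 held a match, to the interferon-stimulated response element core at position -39. Of 32851 promoter windows of 300 bases, 12.4% held the antioxidant response element, 8.30% the interferon-γ activated site, 8.56% the interferon-stimulated response element core and 7.81% the AP-1 site. The start site of the Anpep window lies 12849 bases inside the gene as the count table bounds it, and the window is not printed. A match is a description of letters, and its absence from this window says nothing about the factor.

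Some genes of the wider pathway fell. Outside the 10 genes, 89 genes of glutathione and peroxide chemistry in 9 lists were examined and 77 were tested, of which 7 (9.09%) fell in MSR1 KO at an adjusted p under 0.05, beside 2.66% of all tested genes. By edgeR 0 of the 77 were called higher. At an unadjusted p under 0.05, 18 were lower and 8 higher, beside 10.2% and 8.65% of all tested genes. DESeq2 called 11 lower and 2 higher (Glrx and Selenow), beside 5.17% and 4.39%. The groups did not overlap for 21 of the 77 with MSR1 KO below and for 9 with MSR1 KO above, beside 13.4% and 12.1% of all tested genes, and the median log2 fold change was -0.10. The lists were written with earlier results of these libraries known, so these counts describe them only. Gpx2, Gpx5 and Gpx6, the other peroxidases, had 0 counts in all 6 libraries, which allows up to 3 counts in each.

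Among genes that act next to the aminopeptidases, Dpep1, a membrane dipeptidase of cysteinylglycine, fell from 14.5 ± 1.37 CPM in MSR1 WT to 7.36 ± 1.40 CPM in MSR1 KO (SD, n = 3 for all values here), with a log2 fold change of -0.98 and an adjusted p of 0.023 by edgeR. Dpep2, its more abundant relative, measured 155 ± 12.0 and 151 ± 16.6 CPM, and Cndp2, a cytosolic dipeptidase, 426 ± 7.00 and 476 ± 7.39 CPM, a log2 fold change of 0.16 (adjusted p = 0.18 by edgeR). Ggt1 and Ggt6 had too few counts to be tested. Of the synthesis list 0 of 5 tested genes were called by edgeR or by DESeq2, with 1 lower and 1 higher at an unadjusted p under 0.05. Its most abundant genes by mean CPM over the 6 libraries were the amino acid transporter chain Slc3a2 (log2 fold change 0.29, SE 0.096) and the synthesis subunit Gclm (0.03, SE 0.178). Of 20 tested transferases 1 fell, Gstm1, from 126 ± 22.7 to 79.1 ± 11 CPM (log2 fold change -0.67, adjusted p = 0.041 by edgeR), while the groups of Hpgds (log2 fold change 0.05) and Mgst1 (0.04) overlapped.

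Peroxide-handling enzymes that do not use glutathione directly held 3 of the 7 falls. Catalase, Cat, fell from 690 ± 91.9 to 451 ± 62.9 CPM (SD, n = 3, log2 fold change -0.61, adjusted p = 0.037 by edgeR). Prdx1, the most abundant peroxiredoxin by CPM, fell from 1320 ± 36.5 to 1010 ± 114 CPM (SD, n = 3, -0.38, adjusted p = 0.048 by edgeR), and Srxn1, which repairs oxidised peroxiredoxins, from 110 ± 5.33 to 78.7 ± 3.94 CPM (SD, n = 3, -0.48, adjusted p = 0.019 by edgeR). Of the most abundant genes of this list that were not called, Prdx5 had a log2 fold change of 0.19 (SE 0.082) with MSR1 KO above MSR1 WT. Txnrd1, the selenoprotein that reduces thioredoxin, had one of -0.38 (SE 0.106, adjusted p = 0.091 by edgeR) with MSR1 KO below MSR1 WT, and DESeq2 called it lower. Glrx, a glutaredoxin, had a log2 fold change of 0.35 (SE 0.108, adjusted p = 0.12 by edgeR) and Glrx3 one of -0.03 (SE 0.102). Of the sources of NADPH that Gsr needs, Me1 fell from 17.4, 16.3 and 15.1 CPM in MSR1 WT to 10.3, 10.6 and 11.1 CPM in MSR1 KO libraries (log2 fold change -0.61, adjusted p = 0.027 by edgeR), while the pentose phosphate enzymes Pgd (-0.21, SE 0.073) and G6pdx (-0.05, SE 0.074) were not called. Of 13 other selenoprotein mRNAs, Dio2, the enzyme that activates thyroid hormone, fell from 5.67 ± 0.472 to 1.62 ± 0.334 CPM (SD, n = 3, -1.81, adjusted p = 0.0092 by edgeR). The abundant selenium carrier Selenop had a log2 fold change of -0.24 (SE 0.087) and Selenot one of 0.22 (SE 0.084), neither called.

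Of these 7 falls, that of Dio2 held with any one library left out. The other 6 calls each held without 1 or 2 of the 6 libraries only, and the count of lower pathway genes was 1 without MSR1 KO library 1, 2 without MSR1 KO library 2, 4 without MSR1 KO library 3, 1 without MSR1 WT library 1, 1 without MSR1 WT library 2 and 6 without MSR1 WT library 3. Without both libraries numbered 1 it was 0. The plot of log2 fold changes by list places the 10 genes above these neighbours.

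**Figure D5:**
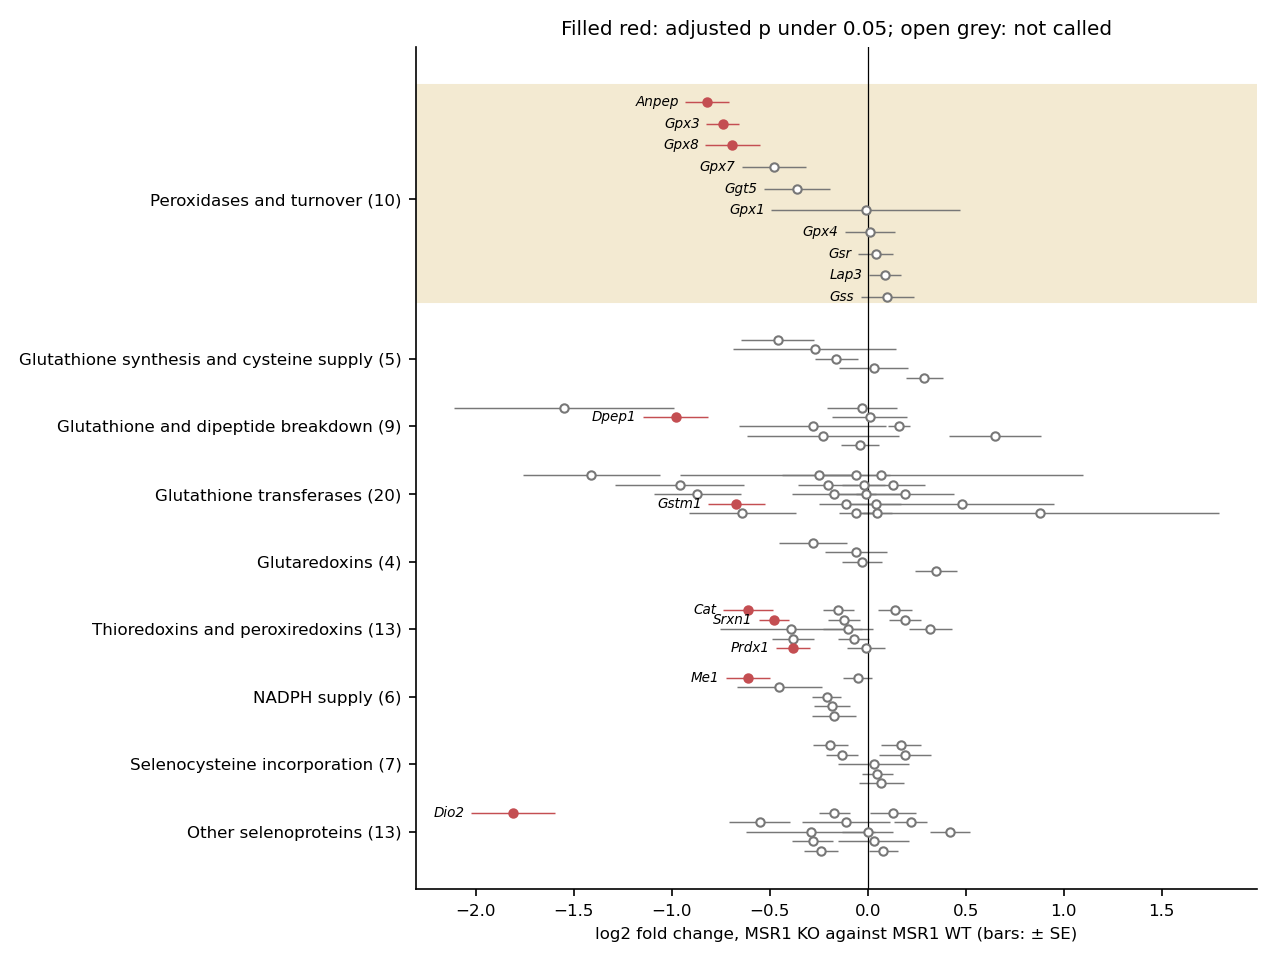
Log2 fold change of MSR1 KO against MSR1 WT (bars ± SE) for the 10 genes, shaded, and for 77 tested genes of 8 pathway lists, with the number tested in brackets. Filled red points are genes called at an adjusted p under 0.05, which are 3 of the 10 genes and 7 of the 77 others, all to the left of 0.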

How the data were processed

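RNA-seq was performed on 3 MSR1 KO and 3 MSR1 WT libraries, grouped by their labels. The authors deposited raw counts per gene and library and, in the same table, a signal column per library in which each count is scaled by a factor of that library. The table also holds the authors' fold changes and p-values, which were not used. The submitters' processing notes name fastp 0.17.1, HISAT2 2.1.0, DESeq2 1.18.1 and R 3.4.3, whereas the study's methods name TopHat. The counting program, strand setting and genome build are not given in the sources used here. No row lacked a gene name.

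Total counts per library were 36143518 to 47417448, and the limit read from a count of 0 covers counting error alone. After filterByExpr and TMM scaling, genes were tested with the quasi-likelihood test of edgeR 4.0.16 in R 4.3.3, with Benjamini-Hochberg adjustment over 16402 genes and calls at an adjusted p under 0.05. The SE of a log2 fold change was its size divided by √F. Log2 CPM used a prior count of 2. Exon lengths and codons came from GENCODE M21 (GRCm38), which holds 52403 of the 52550 identifiers and has the same start and end for 9 of the 10 genes, all but Gpx8. The fits were also run on simulated counts, and the outcome is not given here. Alternatives were DESeq2 1.42.0, other scalings and filters, a block for the replicate number, omission of each library and, added after the data had been seen, both libraries numbered 1 left out.

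The 10 genes and all lists were chosen with earlier results of these data known. Named genes were the 10, every called gene and the 2 most abundant others of each pathway list, the 3 closest profiles to Gpx3 and Anpep, and the 3 most abundant markers. Markers and pathway genes outside this rule, such as the called markers, Thy1, Selenow, Selenoh and Selenoi, were named after their values were seen.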

Additional observations from a re-analysis of the deposited data

How the results depend on the processing

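The log2 fold changes of the 10 genes moved by less than the within-group SD in 128 of 130 alternative values, the exceptions being Gpx7 (-0.40) and Gpx8 (-0.55) without both libraries numbered 1, and no called gene changed sign. That limit is wide for Gpx1 (SD 0.905), whose sign changed in 4 of 13 settings. By calls, Gpx3 was held in 12 of 13 settings, Anpep in 11 and Gpx8 in 4. The named pathway genes below are scored by calls, so the shares are not comparable. Counts of calls depended more on the settings. DESeq2 called 848 genes lower and 720 higher, with 11 pathway genes lower and 2 higher. With every gene of a nonzero total tested, 288 genes were lower and 237 higher, and 4 pathway genes were lower. With at least 10 counts in every library, 1 pathway gene was higher (Selenow). The replicate numbers did not pair the libraries (correlations of deviations -0.026, 0.019 and -0.005 for numbers 1 to 3, and not every library correlated best with its own number), and with the replicate block 78 genes were lower and 59 higher, with 2 of the 10 members and 1 pathway gene lower (Dio2). With each library left out in turn, 53 to 372 genes were lower and 18 to 407 higher, 1 to 2 of the 10 genes were lower, 1 to 6 pathway genes were lower and 0 to 1 higher. Without both libraries numbered 1, 6 genes were lower and 0 higher, and 0 of the 10 and 0 pathway genes were lower, in a fit of 4 libraries. The causes were otherwise not tested. For 23 named pathway genes, 253 of 299 alternative values kept their side of the threshold, 44 lost it and 2 gained it. The sign of the value changed in 16 of the 299, for 6 genes that were not called, and in 10 of the 130 values of the 10 genes, for 4 genes that were not called. With the span of the gene as length, levels per kilobase moved for 9 of the 10 genes, all but Gpx1. Depth limits Gpx7 most, at 118 to 232 counts per library.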
